A study of Homo sapiens with 3 samples.

Results

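The transporters described here are 10 ATP-binding cassette (ABC) proteins known for moving drugs or drug conjugates across membranes, namely ABCG2, ABCB1, ABCC1, ABCC2, ABCC3, ABCC4, ABCC5, ABCC6, ABCC10 and ABCA3. They were listed by gene symbol, with earlier results of these data known, and they are 10 of the 21610 genes that the arrays could name. Together they had 18 probes matched by accession. RNA came from HT29, an established human colon adenocarcinoma cell line, grown on tissue culture polystyrene (TCP), on a membrane of chitosan (CS) or on a chitosan membrane grafted with hyaluronan (CSHA). Chitosan is a polysaccharide made from chitin, and hyaluronan is a polysaccharide of the extracellular matrix. The cells of all 3 substrates were the same line without drug treatment or genetic change named in the labels, so the substrate was the labelled difference. Each substrate had 1 array, and no difference between substrates therefore has a replicate check or a p-value.

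ABC transporters use the energy of ATP to carry substrates out of the cell or into its compartments. In the intestine ABCG2, ABCB1 and ABCC2 sit on the luminal side of the epithelium and return drugs and conjugates to the lumen, while ABCC1 and ABCC3 lie on the basolateral side. The ABCC proteins, also called multidrug resistance-associated proteins or MRPs, mostly carry organic anions and conjugates with glutathione, glucuronate or sulfate. The study asked how the substrates alter drug resistance among other properties of the cells, and the arrays allow the messages of the efflux pumps to be set side by side.

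All arrays lay on 1 slide, and the share of probes well above background was between 48.6% and 51.1%. Colon epithelium markers were well above background for 12 of 13 genes on TCP and for 13 of 13 on both membranes, and their summed signal, not scaled between arrays, was 494150 (TCP), 551310 (CS) and 493082 (CSHA). Relative to TCP and after scaling, 10 of the 13 were higher on CS (median log2 difference 0.24) and 11 on CSHA (median 0.44). Among them CEACAM5 stood at 1.57 and 2.16, CDX2 at 0.92 and 0.88, and GPA33 at no less than 1.62 and 2.01. The largest falls by brightest probe were KRT18 at -0.27 on CS and LGALS4 at -0.20 on CSHA. A second KRT18 probe stood at -0.33 on CS and -0.66 on CSHA. Of 15 stromal, endothelial and immune markers, those well above background numbered 9 (TCP), 6 (CS) and 7 (CSHA). The summed signal of all 15, not scaled between arrays, was 1352, 1930 and 2125. Most of it came from CD14 alone, which read 834 (TCP), 1408 (CS) and 1633 (CSHA). CD14 and CD68 were higher on CS (0.50 and 0.80) and on CSHA (1.04 and 1.01), and CD3E stood at -2.78 or below on CS and at -1.75 on CSHA. The fibroblast genes COL1A1, COL1A2, COL3A1, DCN and LUM were not well above background on any array. Vimentin and SPARC were well above background on TCP and on neither membrane. The part of these marker differences in the transporter values was not tested.

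In the text below, the signal is the background-corrected brightness of a probe. The level is its log2 value minus the log2 of the array's 75th percentile, which was a signal of 354 (TCP), 423 (CS) and 337 (CSHA). A signal can therefore be higher on CS than on TCP while the level is lower. Differences are between levels, on the log2 scale. The error given is the SD expected for a difference from the spread among repeated spots, taken from 902 probes printed 10 times per array at like brightness. It covers spots of an array and not cultures. A smaller share of expressing cells and less RNA per cell cannot be told apart in these bulk samples.

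Of the 10 transporters, 8 were measured on all 3 arrays and 2, ABCB1 and ABCA3, on none. Of the 18 probes, 14 were well above background on all arrays and 4 on none. Levels of different probes are not compared with each other here, because brightness also depends on the probe.

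**Figure D1:**
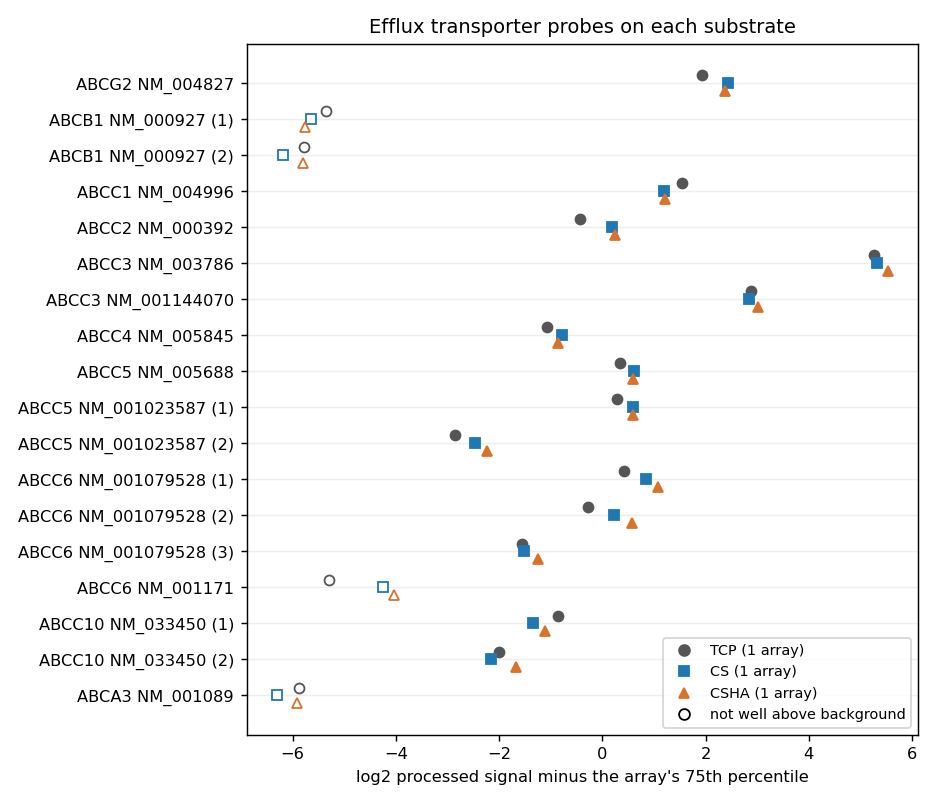
Level of each of the 18 transporter probes on TCP, CS and CSHA (x axis, log2 processed signal minus the 75th percentile of the array), with 1 symbol per array and open symbols where the probe was not well above background. The CS and CSHA symbols of ABCG2, ABCC2 and the filled ABCC6 probes lie right of the TCP symbol, those of ABCC1 lie left of it, and ABCB1 and ABCA3 are open throughout.

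Among the apical pumps, ABCG2 and ABCC2 had higher levels on both membranes and ABCB1 was not measured. ABCG2 (NM_004827, chromosome 4), the breast cancer resistance protein, exports a wide range of drugs and marks the side population of stem-like cells. Its signal was 1356 (TCP), 2291 (CS) and 1749 (CSHA), which gave levels of 1.94, 2.44 and 2.37. ABCG2 was higher than on TCP, on CS by 0.50 ± 0.062 (SD among spots) and on CSHA by 0.44 ± 0.067, or 1.41-fold and 1.35-fold. The membranes differed from each other by -0.06 ± 0.059, about the spread among spots. Only 1 probe was matched to ABCG2 by accession, so no second measurement of it is given.

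ABCC2 (NM_000392, chromosome 10), or MRP2, is the apical exporter of glutathione and glucuronate conjugates and of bilirubin glucuronides. Its signal was 263 (TCP), 482 (CS) and 398 (CSHA), and its levels were -0.43, 0.19 and 0.24. The difference from TCP was 0.62 ± 0.096 on CS and 0.67 ± 0.097 on CSHA, corresponding to 1.54-fold and 1.59-fold. By brightest probe no measured transporter had a higher difference, although on CSHA that of ABCC6 was lower by less than the spread among spots. CSHA and CS differed by 0.05 ± 0.080, within the spread. ABCC2 also had 1 matched probe.

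ABCB1 (NM_000927, chromosome 7, beside ABCB4), or P-glycoprotein, is the pump first known for multidrug resistance. One of its probes was printed 10 times per array, which gave a view of its dim signal. The median signal over the spots used was 9.01 (TCP), 7.98 (CS) and 5.66 (CSHA), and 0 spots were well above background on each array. The lowest signal of any probe well above background was 24.1 (TCP), 21.1 (CS) and 22.6 (CSHA), and the highest ABCB1 spot in use reached 15.9, 16.2 and 9.29. On CSHA 2 spots had been flagged as outliers and were not used. The second ABCB1 probe read 6.41, 5.78 and 6.06. ABCB1 was thus below the range that the arrays measured on every substrate, and no difference is given for it.

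**Figure D2:**
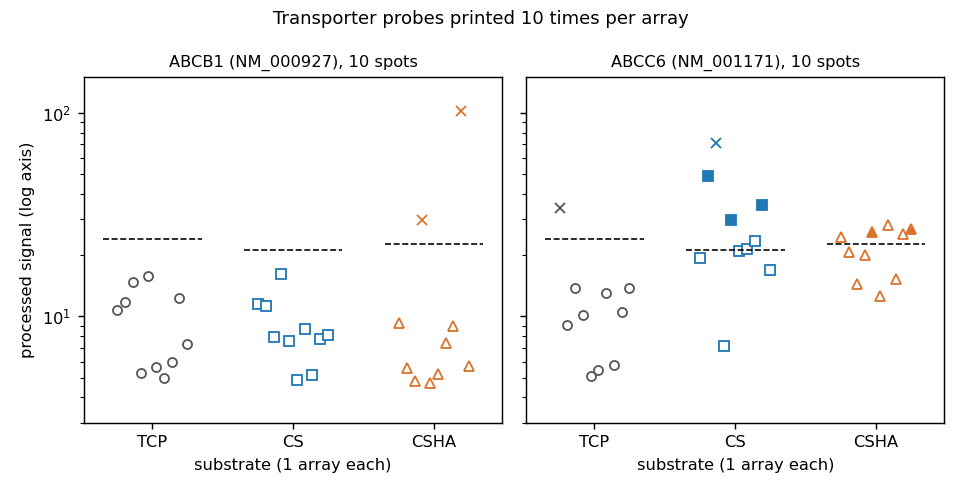
Processed signal of every spot (log axis) of the ABCB1 and full-length ABCC6 probes printed 10 times on the TCP, CS and CSHA arrays. Filled symbols are spots that the scanner software called well above background, crosses are outlier-flagged spots that were not used, and the dashed line is the lowest signal of any probe well above background on that array. Unflagged ABCB1 spots lie below the line on every array, while ABCC6 has 3 filled spots on CS, 2 on CSHA and 0 on TCP.

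The basolateral and other pumps lay on both sides of their TCP level. ABCC1 (NM_004996, chromosome 16), or MRP1, carries leukotriene C4, glutathione conjugates and many anticancer drugs. Its signal was 1031 (TCP), 968 (CS) and 779 (CSHA), giving levels of 1.54, 1.20 and 1.21. ABCC1 was lower than on TCP, on CS by 0.35 ± 0.067 and on CSHA by 0.33 ± 0.070, and the membranes differed by 0.01 ± 0.067. Relative to TCP, its ratio was 0.786 on CS and 0.793 on CSHA. When the arrays were scaled to 7 spike-in probes instead, ABCC1 stood at 0.10 above TCP on CSHA while the median of all genes moved up by 0.44 to 0.57, so ABCC1 stayed below that median.

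ABCC3 (chromosome 17), or MRP3, exports glucuronides and bile acids toward the blood and is an abundant transporter of colon epithelium. Its brighter probe (NM_003786) read 13668 (TCP), 16868 (CS) and 15626 (CSHA), with levels of 5.27, 5.32 and 5.53. The difference from TCP was 0.05 ± 0.056 on CS, within the spread, and 0.26 ± 0.062 on CSHA. A probe for a shorter transcript (NM_001144070) stood at -0.05 ± 0.056 on CS and at 0.13 ± 0.062 on CSHA. Both probes were thus near the TCP value on CS and above it on CSHA.

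ABCC4 (NM_005845, chromosome 13), or MRP4, exports cyclic nucleotides, prostaglandins and nucleotide analogs. Its signal was 169 (TCP), 244 (CS) and 186 (CSHA), and its levels were -1.07, -0.79 and -0.86. ABCC4 was higher than on TCP by 0.28 ± 0.122 on CS. On CSHA its difference of 0.21 ± 0.129 was less than 2 SD among spots.

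ABCC5 (chromosome 3), or MRP5, also carries cyclic nucleotides and nucleotide analogs, among them metabolites of fluoropyrimidines. Its probe for the full-length transcript (NM_005688) read 450 (TCP), 645 (CS) and 512 (CSHA), with levels of 0.35, 0.61 and 0.60. The differences were 0.26 ± 0.083 for CS and 0.25 ± 0.085 for CSHA. Of 2 probes for a shorter transcript (NM_001023587), the brighter stood at 0.30 ± 0.083 and 0.31 ± 0.085 and the dimmer at 0.39 ± 0.206 and 0.60 ± 0.231. All 3 ABCC5 probes were above their TCP value on both membranes, the dimmer one on CS by less than 2 SD.

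ABCC6 (chromosome 16), or MRP6, is needed for the release of ATP from liver cells, and its loss causes pseudoxanthoma elasticum. It is the neighbour of ABCC1, and its pseudogenes share near-identical exons with it, so probes for it may not tell them apart. The brightest probe (NM_001079528, a short transcript) read 473 (TCP), 763 (CS) and 711 (CSHA), with levels of 0.42, 0.85 and 1.08. It was higher than on TCP, on CS by 0.44 ± 0.083 and on CSHA by 0.66 ± 0.080, or 1.35-fold and 1.58-fold. Another probe of this transcript gave 0.51 ± 0.096 and 0.87 ± 0.097, and the dimmest gave 0.03 ± 0.130 and 0.31 ± 0.137. All 3 probes were higher on CSHA than on TCP, and on CS the dimmest was within the spread.

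The probe for full-length ABCC6 (NM_001171) did not count as well above background on any array, since too few of its spots passed. Its median signal was 10.1 (TCP), 21.4 (CS) and 22.6 (CSHA), and 0 of 9, 3 of 9 and 2 of 10 spots used were well above background. The spots ran between 5.11 and 13.9 (TCP), 7.15 and 49.0 (CS) and 12.6 and 28.0 (CSHA). The ranges overlapped for every pair of arrays, and no fold is given because the probe has no measured level. A probe for the pseudogene ABCC6P1 read 16.6 on TCP, where it was not well above background, 26.7 on CS and 31.2 on CSHA. What share of the ABCC6 values came from pseudogene transcripts was not tested.

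ABCC10 (NM_033450, chromosome 6), or MRP7, exports taxanes and vinca alkaloids when expressed at high levels. Its brighter probe read 194 (TCP), 167 (CS) and 156 (CSHA), with levels of -0.87, -1.34 and -1.11. It was lower than on TCP, on CS by 0.47 ± 0.115 and on CSHA by 0.25 ± 0.123. The other probe disagreed on CSHA. It stood at -0.17 ± 0.163 on CS and at 0.33 ± 0.137 on CSHA, so the direction of ABCC10 on CSHA depends on the probe. The mean over both probes was 0.040 above TCP on CSHA, and scaling to spike-in probes gave 0.19 for the brighter probe.

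ABCA3 (NM_001089, chromosome 16) loads lipids into the lamellar bodies of lung cells and has been linked to drug storage in leukaemia cells. Its signal was 6.0 (TCP), 5.35 (CS) and 5.57 (CSHA) and was not well above background on any array. As with ABCB1, no difference is given.

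On CS, most of the measured transporters had higher levels than on TCP, by moderate amounts. ABCC2, ABCG2, ABCC6, ABCC4 and ABCC5 were higher by more than 2 SD among spots, ABCC10 and ABCC1 were lower by more than 2 SD, and ABCC3 was within it. Counted by brightest probe, 6 of 8 were higher and 2 were lower (5 higher, ABCC3 having turned to -0.0022, where the shift was set on detected probes). Over all 14462 genes compared, 56.8% were higher and 43.2% lower, and 30.3% were higher and 20.8% lower by more than 2 SD. The median difference of the 8 genes was 0.27, against 0.04 for all genes and 0.24 for the colon epithelium markers. A change of at least 2-fold was seen for 0 of 8 transporters, where 1.37% of all genes were 2-fold higher and 1.92% were 2-fold lower.

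On CSHA, the same TCP array was the reference, so these values are not independent of those on CS. ABCC2, ABCC6, ABCG2, ABCC3 and ABCC5 were higher than on TCP by more than 2 SD among spots. ABCC1 and ABCC10 were lower by more than 2 SD, ABCC1 by 4.76 SD and ABCC10 only barely, by 2.002 SD. The disagreement between ABCC10 probes is given above. The count was again 6 of 8 higher and 2 lower, beside 61.7% higher and 38.3% lower among 14621 genes, of which 41.6% were higher and 24.6% lower by more than 2 SD. With scaling to spike-in probes, 8 of 8 were higher, along with the shift of all genes by 0.44. The median of the 8 genes was 0.26, against 0.13 for all genes and 0.44 for the colon epithelium markers. None reached 2-fold (0 of 8), beside 3.02% of all genes that were 2-fold higher and 3.98% that were 2-fold lower. This split of all genes was 442 higher and 582 lower, and 1809 and 176 with scaling to spike-in probes.

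**Figure D3:**
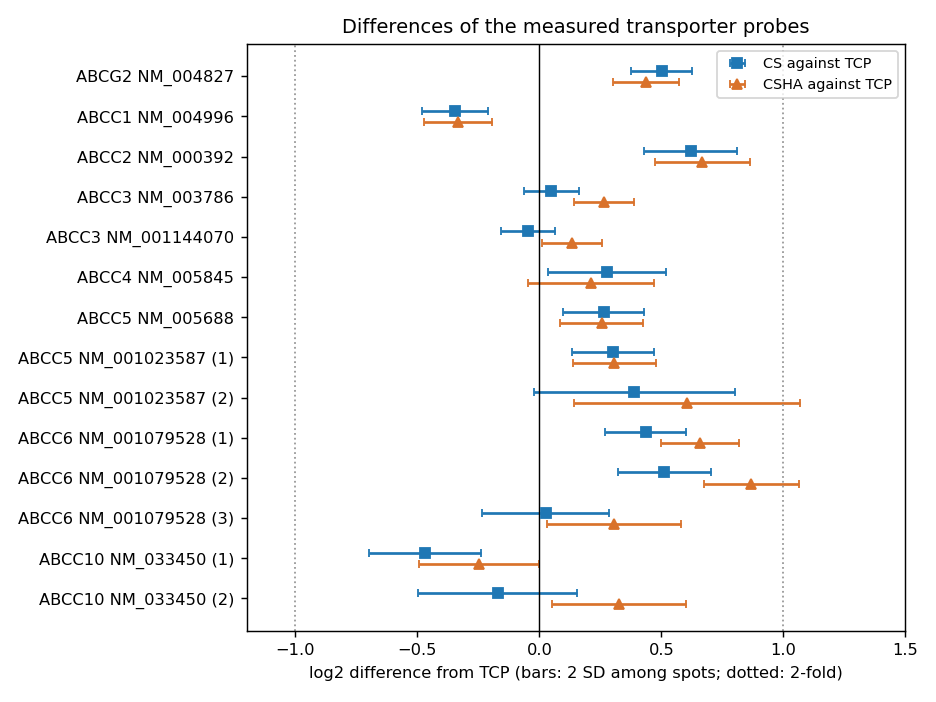
Log2 difference from TCP of each of the 14 transporter probes measured on all arrays, on CS (squares) and CSHA (triangles), with bars of 2 SD expected from the spread among spots and dotted lines at a 2-fold change. ABCG2, ABCC2 and the brighter ABCC6 probes lie right of 0 beyond their bars, ABCC1 lies left of 0, the 2 ABCC10 probes fall on opposite sides on CSHA, and no probe reaches the dotted lines.

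CSHA and CS were close to each other for most of these genes. Between CSHA and CS, 5 of 8 were higher and 3 lower, or 8 higher with scaling to spike-in probes, which moved the median of all genes by 0.38. By the main scaling and by brightest probe, 6 of 8 differed by less than 2 SD among spots. Among 14597 genes, 58.5% were higher and 41.5% lower on CSHA. By brightest probe only ABCC6, by 0.22 ± 0.074, and ABCC3, by 0.21 ± 0.059, were higher on CSHA beyond 2 SD. Of all genes 35.3% were higher and 23.5% were lower to this extent. The dimmer ABCC10 probe was higher on CSHA by 0.50 ± 0.160, beyond 2 SD, and the brighter one by 0.22 ± 0.126. The median of the 8 genes was 0.03, against 0.07 for all genes, and 0 of 8 changed by at least 2-fold, beside 2.27% of all genes higher and 2.15% lower. In genes this was 332 higher and 314 lower, 243 and 374 with quantile normalization and 995 and 117 with scaling to spike-in probes.

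The sequences before transcription starts are shown for the 4 transporters with the largest differences on CS by brightest probe. The RefSeq table (GRCh38.p14) held 15 windows of 250 bases upstream of a start for 8 of the 10 transporters. ABCC1 and ABCC3 had no window. The arrays do not tell which start was used, and the windows below were chosen after the values and matches had been seen. ABCG2 is shown at chr4:88158910-88159159 (minus strand), ABCC2 at chr10:99782390-99782639 (plus strand) and ABCC6 at chr16:16223472-16223721 (minus strand), as genes higher on both membranes. ABCC10 is shown at chr6:43427291-43427540 (plus strand) as a gene lower on CS. Each reads 5′ to 3′ on the strand of the gene, and capitals mark the motif matches described after them.
ABCG2: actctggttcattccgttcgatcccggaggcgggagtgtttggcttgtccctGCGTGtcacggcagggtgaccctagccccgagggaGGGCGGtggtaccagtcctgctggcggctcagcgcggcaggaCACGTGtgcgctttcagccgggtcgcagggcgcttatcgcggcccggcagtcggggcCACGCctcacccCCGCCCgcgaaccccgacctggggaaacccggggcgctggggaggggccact
ABCC2: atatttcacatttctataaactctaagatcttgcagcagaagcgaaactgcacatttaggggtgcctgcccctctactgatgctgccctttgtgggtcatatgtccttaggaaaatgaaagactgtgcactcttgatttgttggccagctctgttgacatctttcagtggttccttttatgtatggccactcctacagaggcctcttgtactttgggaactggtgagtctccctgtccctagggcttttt
ABCC6: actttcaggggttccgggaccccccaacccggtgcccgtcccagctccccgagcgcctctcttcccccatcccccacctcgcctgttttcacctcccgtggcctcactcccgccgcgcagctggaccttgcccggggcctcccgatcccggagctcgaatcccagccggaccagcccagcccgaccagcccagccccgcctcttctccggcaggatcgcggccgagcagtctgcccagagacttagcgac
ABCC10: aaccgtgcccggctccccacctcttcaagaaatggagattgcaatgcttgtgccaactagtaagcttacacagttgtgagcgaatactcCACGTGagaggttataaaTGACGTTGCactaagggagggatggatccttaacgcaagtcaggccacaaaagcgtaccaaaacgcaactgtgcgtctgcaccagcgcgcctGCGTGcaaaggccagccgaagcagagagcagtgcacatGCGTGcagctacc

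The motifs searched on both strands were ACGTG (core of hypoxia-inducible factor sites), GCGTG (core of AHR and ARNT sites), TGACNNNGC (core of antioxidant response elements), TCAAAG (core of TCF/LEF sites), AGGTCA (nuclear receptor half-site) and GGGCGG (GC box of SP1). The ABCG2 window holds ACGTG on both strands within 1 palindrome at -121 to -116, GCGTG at -198 to -194 and its reverse complement at -64 to -60, and a GC box on each strand. The ABCC10 window holds the same palindrome at -161 to -156, an antioxidant response core at -143 to -135 and GCGTG at 2 places. The ABCC2 and ABCC6 windows hold none of the 6 motifs. In the printed windows only the ACGTG matches of a palindrome overlap each other. GC content was 71.2% for the ABCG2 window, 71.2% for ABCC6, 53.6% for ABCC10 and 45.6% for ABCC2, beside a median of 58% for all 35116 windows. ABCG2 had 5 windows in all, with GC contents of 73.6%, 72.4%, 71.2%, 43.6% and 40%, and the last 2 of these held none of the motifs.

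Over all windows of the same length, ACGTG was found in 18.5%, GCGTG in 32.2%, TGACNNNGC in 10.9%, TCAAAG in 11.2%, AGGTCA in 12.1% and GGGCGG in 42.6%. Of the 15 transporter windows, which overlap for ABCG2 and for ABCC6, 3 held ACGTG, 7 held GCGTG, 3 held TGACNNNGC, 0 held TCAAAG, 1 held AGGTCA and 5 held GGGCGG. The ACGTG match was thus present before a gene that was higher and before one that was lower on CS, and a match is a description of letters and not of a bound site.

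The other ABC genes were split evenly between higher and lower levels. Of 38 listed, 37 had a probe and 24 had a value in each comparison with TCP, with 12 higher and 12 lower on each membrane. The medians were -0.0019 for CS and 0.02 for CSHA. The gene whose pair of differences was nearest to that of ABCG2, among 28 ABC genes measured on all arrays, was ABCC6, at a distance of 0.231 on the log2 scale. It was followed by CFTR, the chloride channel of the apical membrane, at 0.257 and ABCC2 at 0.259. CFTR read 1818 (TCP), 3256 (CS) and 2774 (CSHA), a difference of 0.59 on CS and 0.68 on CSHA.

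On CSHA, the largest differences by brightest probe among the ABC genes with a value lay outside the drug efflux genes, in transporters of sterols and lipids, ABCF1 and ABCC8. On CS, ABCA1, ABCG1 and ABCF1 differed from TCP by less than ABCG2 and ABCC2 did. ABCA1 and ABCG1, which pass cholesterol to lipoproteins, were higher by 0.42 and 0.41 on CS and by 1.53 and 1.60 on CSHA. A second, dim ABCA1 probe was well above background on CSHA alone, where its difference from TCP was a bound of at least 0.247. ABCA5, a lysosomal lipid transporter, had no measured level on TCP, so its differences are bounds, of at least 1.02 for CS and at least 2.63 for CSHA. ABCF1, which has no membrane domain and acts in translation, was lower on CS by 0.43 and on CSHA by 1.56. ABCC8, the sulfonylurea receptor, was lower by 0.69 and 0.98.

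**Figure D4:**
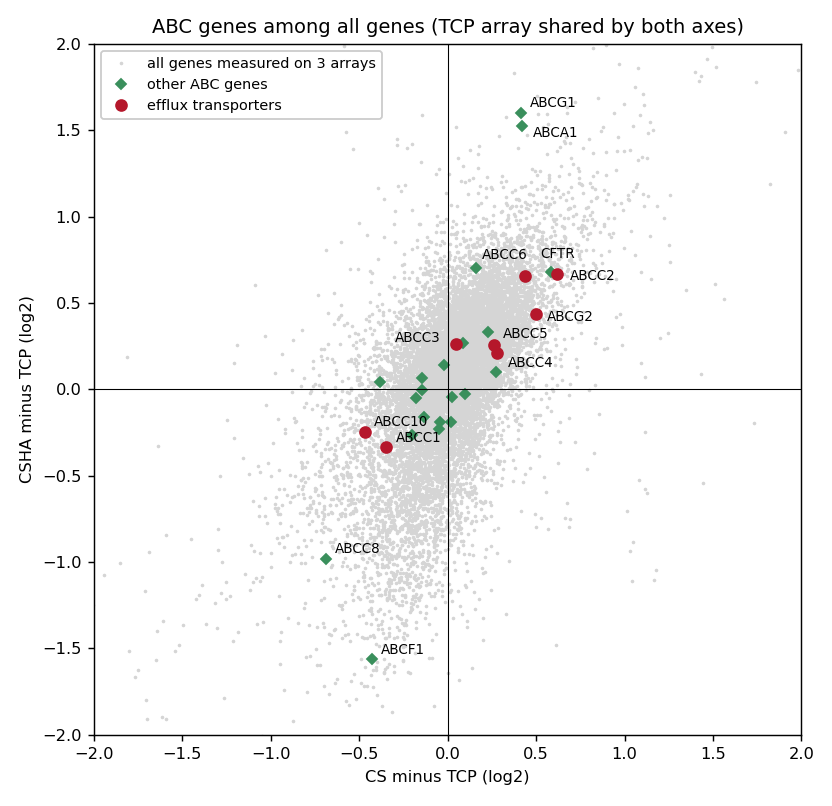
Log2 difference from TCP on CS (x axis) and CSHA (y axis) for the 8 measured efflux transporters (red), 21 other ABC genes (green) and all 13482 genes measured on all 3 arrays (grey), of which 47 lie beyond the axes. Both axes subtract the same TCP array, so the slope of the grey cloud is not a result; 6 transporters lie in the upper right, ABCC1 and ABCC10 lie in the lower left, and ABCA1, ABCG1 and ABCF1 lie farther from 0 on CSHA.

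Transcription factors known to act on efflux genes, with the partner proteins KEAP1 and CTNNB1 counted among them, were measured for 20 of 24 on CS. On CSHA 21 had a value. CS had 14 higher and 6 lower (median 0.12), and CSHA had 16 higher and 5 lower (median 0.23). Of these, 6 and 7 were within 2 SD among spots. Over all genes 56.8% and 61.7% were higher, with medians of 0.04 and 0.13, and these values are the background for the lists that follow too. ARNT, the partner of AHR and of the hypoxia-inducible factors, read 130 (TCP), 307 (CS) and 148 (CSHA). Its difference was 0.99 ± 0.122 on CS and 0.25 ± 0.137 on CSHA, the latter less than 2 SD. AHR, which acts on ABCG2, was higher by 0.19 and 0.61, and FOXO1 was lower by 0.54 on CS. HNF4A, a regulator of intestinal and liver genes, was higher by 1.01 on CSHA from a dim signal of 31.5 on TCP. YBX1, a DNA- and RNA-binding protein, was lower by 0.79 on CSHA by its brighter probe, while its other probe stood at 0.22.

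The genes that make the conjugates carried by MRPs were mostly higher. Of 27 listed, which include those of glutathione synthesis, the cystine carrier SLC7A11, glutathione transferases, sulfotransferases and glucuronosyltransferases, 18 had a value on CS, of which 16 were higher and 2 lower, with a median of 0.22 and 3 of the 18 within 2 SD. On CSHA 17 had a value, 14 were higher and 3 lower, and the median was 0.32, with 2 within 2 SD. The background was 56.8% higher on CS and 61.7% on CSHA. UGT2B7, a glucuronosyltransferase, was higher on CS by 0.82 and on CSHA by 0.73, and UGT2B15 was higher by at least 1.02 on CSHA. The subunits of the rate-limiting enzyme of glutathione synthesis differed in direction. The catalytic subunit GCLC was higher by 0.47 and 0.36, and the modifier subunit GCLM was lower by 0.78 and 0.63.

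Genes of fluoropyrimidine and folate metabolism, which handle 5-fluorouracil and related drugs, were near balance. Of 25 measured genes, CS had 11 higher and 14 lower and CSHA had 13 higher and 12 lower, with medians of -0.016 and 0.01. DPYD, the enzyme that degrades 5-fluorouracil, read 73.7 (TCP), 76.4 (CS) and 144 (CSHA). Its difference was -0.20 ± 0.206 on CS, within the spread, and 1.04 ± 0.186 on CSHA. Its second probe was not well above background on any array. TYMS, the thymidylate synthase that the drug inhibits, was lower on CS by 0.13 and on CSHA by 0.51. The nucleoside carrier SLC29A2 was lower by 1.11 on CSHA, and uridine phosphorylase UPP1 was lower on CS by 0.48 and on CSHA by 0.80.

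Proteins that hold or move apical transporters were all measured, 17 of 17. CS had 10 higher and 7 lower (median 0.04), near the 56.8% higher and median of 0.04 of all genes. CSHA had 12 higher and 5 lower (median 0.18), beside 61.7% and 0.13 for all genes. NHERF4, a PDZ scaffold of the brush border, was higher on CS by 0.69 and on CSHA by 0.84. MYO5B, the motor that brings vesicles to the apical membrane, was higher by 0.45 and 0.95. PDZK1, which binds the tail of ABCC2, was higher by 0.21 and 0.30. Other members of the list went the other way. RDX stood at -0.16 on CS and -0.30 on CSHA, EZR at -0.13 and -0.03, and MSN at -0.24 and -0.06. NHERF1 and NHERF2 stood at -0.08 and -0.09 on CS and at 0.37 and 0.17 on CSHA. CAV1, the coat protein of caveolae, was lower by 0.77 and 0.76.

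The solute carriers for drug uptake and cation extrusion were sparsely measured, with values for 13 of 21 on CS and 14 on CSHA. CS had 8 higher and 5 lower (median 0.13), and CSHA had 9 higher and 5 lower (median 0.23), shares near the 56.8% and 61.7% of all genes. The uptake carrier SLCO1B1 read 71.3 (TCP), 40.0 (CS) and 103 (CSHA), a difference of -1.09 on CS and 0.60 on CSHA. The bile acid exporter subunits SLC51A and SLC51B did not go together on CSHA, where SLC51A was higher by at least 1.14 and SLC51B was lower by 0.80. SLC47A1, a proton-driven cation exporter, was well above background on TCP alone. Its relative SLC47A2 was higher on CS by 0.59 ± 0.287 and on CSHA by 0.98 ± 0.306.

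**Figure D5:**
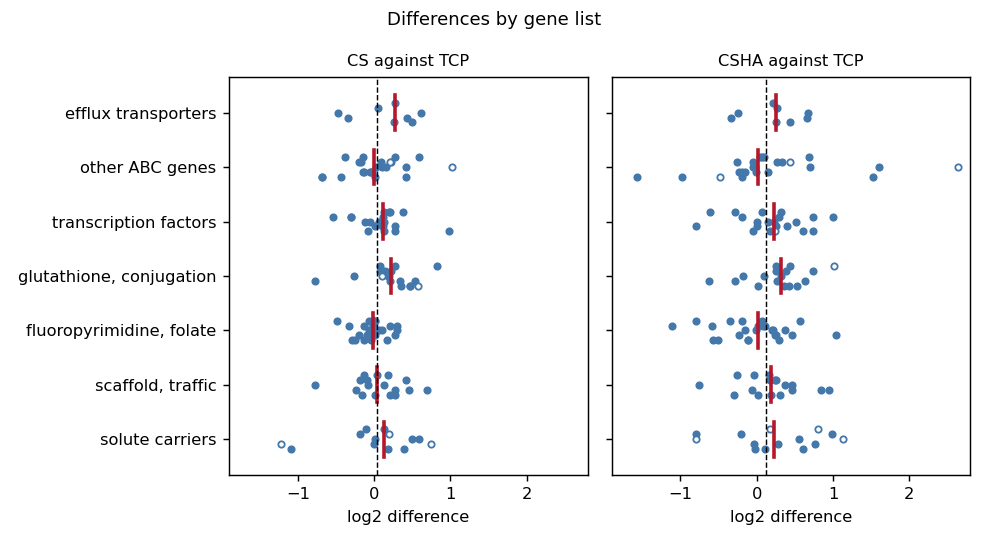
Log2 difference from TCP of each gene with a value on CS and on CSHA, by gene list, with filled points for measured differences, open points for lower bounds, red bars at the median of the list and a dashed line at the median of all genes. The efflux transporters, transcription factors, glutathione and conjugation genes and solute carriers have medians right of the dashed line on both membranes. The other ABC genes and the fluoropyrimidine list have medians left of it. The median of the scaffold list is close to the line on CS and right of it on CSHA.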

How the data were processed

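Single-colour Agilent arrays of HT29 cells on TCP, CS and CSHA (1 each) were analysed. The authors deposited the spot intensity given by Feature Extraction 10.7.3.1 (build hg19, per the file headers), its flags, and 1 table of log2 values whose differences between arrays equal those of the log2 median spot signal, not corrected for background, apart from a constant. The column medians were 0.0130 (TCP), -0.129 (CS) and 0.0427 (CSHA), and what each spot was centred on is not known. The study's methods name another software version and other kits than the labels. No column was left unused (0 without a sample).

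From the log2 processed signal (floor 1, which altered 0 spots) the 75th percentile of the array was subtracted, computed over 50599 probes with control spots excluded. Outlier-flagged spots were left out and spots of a probe averaged. A probe with repeated spots counted as well above background where more than 50% of its spots were. Accessions were matched to RefSeq symbols for 30000 probes. The brightest probe stood for a gene. Where only 1 of the arrays compared had measured a gene, a lower bound is given, with the other array set to its lowest detected signal or to the probe's signal if that was higher. With 1 array per condition no test was run, and a change was called at 2-fold.

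The transporters, the 8 other lists and the naming rule (from each other list the genes with the largest difference in either direction and those past 2-fold) were chosen with earlier results of these data known. Not every gene that the rule picked is named above, DUT and CDH5 being examples of those left out. AHR, GCLC, TYMS, PDZK1, RDX, EZR, MSN, NHERF1, NHERF2, CDX2 and further values of named genes were picked after their values were seen. The calculation was tested on simulated data. Altogether 11 alternatives and thresholds of 1.5-fold and 3-fold were tried. Python 3.11.15, numpy 2.4.6, pandas 2.3.3, matplotlib 3.10.9, R 4.3.3 and limma 3.58.1 were used. No genome was used, and coordinates are those of the RefSeq table.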

Additional observations from a re-analysis of the deposited data

How the results depend on the processing

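The counts and medians of the transporters stayed close to the reported value in 98 of 105 results over the alternatives. Without a filter on dim probes, the median on CS was 0.156 against 0.27. This median took in ABCB1 and ABCA3, which were not well above background on any array. At a threshold of 1.5-fold, 1 transporter was called on CS and 2 on CSHA, against 0 at 2-fold. Scaling to the spike-in probes shifted all genes on CSHA upward by 0.44 at the median and gave a median of 0.695 for the transporters, 2 of them at least 2-fold higher, and between CSHA and CS it gave a median of 0.407 with 8 higher, where ABCG2, ABCC4 and ABCC5 turned to 0.31, 0.31 and 0.37. Of single transporters, 225 of 264 values stayed within 1 SD among spots and the others moved by more. Part of this share was fixed in advance. The 8 measured transporters were well above background on every array. Dropping the filter or requiring detection on all arrays could therefore not move their values, and the latter could not move their counts and medians. The mean over a gene's probes could not move the 4 with 1 probe. The sign changed in 11 values, 3 of which had differed by more than 2 SD and 8 by less. Those 3 were on CSHA, where ABCC1 stood at 0.10 and ABCC10 at 0.19 with spike-in scaling, and ABCC10 stood at 0.040 as the mean over its probes. ABCG2 lay between 0.45 and 0.59 on CS and between 0.38 and 0.87 on CSHA, and ABCC2 between 0.45 and 0.68 and between 0.52 and 1.10. Of the medians of the other lists, 226 of 264 stayed and 38 moved. Counts of all genes at least 2-fold changed depended on the setting in 39 of 78 cases. On CSHA they were 442 higher and 582 lower as reported, 1809 and 176 with spike-in scaling, 155 and 292 with normexp correction and 1129 and 1190 without a filter. On CS they were 198 and 278, 57 and 104 with normexp and 635 and 1152 without a filter. Between CSHA and CS they were 332 and 314, 105 and 148 with normexp and 1111 and 676 without a filter. With the deposited values they were 68 and 137 on CS, 184 and 328 on CSHA and 155 and 146 between CSHA and CS, and with probes well above background on all arrays 84 and 80, 263 and 445, and 108 and 203. The cause of these shifts was not tested. No paired analysis was possible because each substrate had 1 array. The low signal of ABCB1, ABCA3 and full-length ABCC6 sets the limit of what could be compared, and 1 array per substrate limits every difference.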
